A study of Mus musculus with 6 samples.

Results

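ADAM proteins are membrane-anchored relatives of snake venom proteins that join a metalloprotease domain to a disintegrin domain. They cut other membrane proteins from the cell surface or act in adhesion, and many mouse members are made almost only in the testis. The members were all gene symbols made of Adam, a number and at most 1 letter, which leaves out the secreted Adamts proteases. This rule gave 33 genes of the 23889 in the deposited tables, chosen by name and not by level. They were sorted by what is known of them in mouse into 21 testicular or epididymal genes, 9 somatic proteases and 3 somatic adhesion genes without protease activity.

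RNA was measured in 6 mouse libraries to compare androgenetic haploid embryonic stem cells (AG-haESCs) with other cells. AG-haESCs are stem cells that carry a paternal genome alone, made by placing the head of a sperm in an oocyte without its own nucleus. The oocytes came from BDF1 hybrid mice of 8 to 10 weeks, and the strain is given as F1 hybrid C57BL/6 X DBA/2. The 3 AG-haESC libraries are 1 library each of the lines A129-2, AOS-14 and AOS-16, grown on feeder cells in serum replacement with 2i, which blocks the kinases MEK and GSK3, and sorted for haploid cells in G0/G1. The round sperm group is 1 library of the same strain, labelled as sperm, and its label repeats the culture and sorting text of the AG-haESCs. The ESC XX group is 2 libraries of embryonic stem cells derived from an Oct-GFP (C57) background, grown in serum, LIF and 2i and collected after what the label calls a feeder-free treatment. No sort is named for them, and nothing says that the pair came from separate cultures.

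Values are FPKM, fragments scaled by transcript length and by depth, or TPM, the same values rescaled to a common total in each library. Steps between low values gave approximate depths from 9160000 fragments in A129-2 to 19710000 in AOS-14. The ESC XX pair differed by only 1.19 and 1.39 times counting noise for genes of 10 to 100 and of 100 to 1000 fragments, against 5.49 to 12.4 and 18.1 to 43.3 times between AG-haESC lines. The 8 spermatid markers stood between 254 and 10837 FPKM in round sperm and at most at 0.772 in an AG-haESC line. The 6 pluripotent cell markers summed to 2929 to 3465 TPM in AG-haESCs, 3015 and 3060 in ESC XX and 196 in round sperm. Klf4 alone made up 176.5 TPM of the round sperm sum, above its 137.7 ± 40.3 in AG-haESCs (SD, n = 3), and each of the other 5 was at 8.19 TPM or below there. All Sertoli markers together summed to 0.943 TPM in round sperm, and of the 5 epididymis markers 3 were at 0 there. The 5 spermatocyte markers summed to 175.5 TPM in round sperm. Sycp3 was at 72.8, Sycp1 at 46.3, Spo11 at 35.3, Hormad1 at 20.2 and Dmc1 at 0.917. Sycp3, Sycp1 and Spo11 were higher there than in any AG-haESC line. Hormad1 and Dmc1 were lower there than in AG-haESCs, at 35.5 ± 10.7 and 6.86 ± 1.40 TPM (SD, n = 3). The part of these 5 markers in the round sperm levels was not tested.

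Testicular members and somatic proteases were highest in different cells, and the adhesion members followed neither. In round sperm 20 of the 21 testicular members stood between 18.1 and 1385 FPKM, and the 21 together made up 99.1% of the family's TPM there. In AG-haESCs and ESC XX they summed to 0.647 to 2.55 TPM in any library, and the somatic members made up nearly all of the family. The somatic proteases summed to 155 TPM in A129-2, 155 in AOS-14, 164 in AOS-16, 181 and 180 in ESC XX, and 24.4 in round sperm. The adhesion members summed to 30.9, 8.44 and 12.0 TPM in the lines in the same order, 7.92 and 6.52 in ESC XX, and 14.9 in round sperm, within the range of the lines. In a bulk library, fewer cells of a type and less RNA per cell cannot be told apart.

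**Figure D1:**
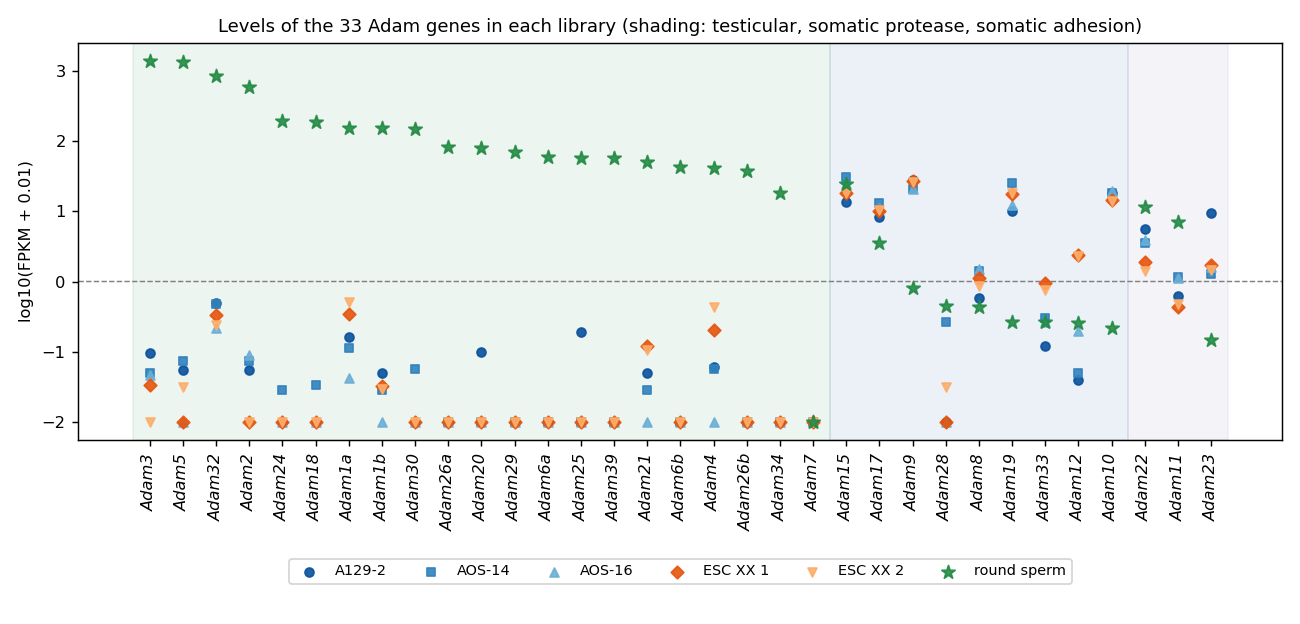
Level of each of the 33 Adam genes in each of the 6 libraries, as log10(FPKM + 0.01), with 1 point per library and the dashed line at 1 FPKM; shading marks the 3 subgroups. Round sperm (stars) stands above all other libraries for 20 testicular members, while points at the bottom are listed at 0 and can hide each other.

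Among members with a promoter window, the 2 kinds of member differed in a feature the rule did not use. RefSeq windows on GRCm38.p6, from 250 bases before to 50 after the start, were at hand for 17 of the 33 members. Among those without a window were Adam2, Adam3, Adam5, Adam18, Adam24, Adam30 and Adam32, each above 100 FPKM in round sperm. The somatic members Adam9, Adam11, Adam12, Adam28 and Adam33 had no window either. The windows of 10 testicular members held 0 to 4 CpG dinucleotides, the site of DNA methylation in mammals. The 9 windows of 7 somatic members held 5 to 32, with Adam8 at 6 and Adam19 at 5, 5 and 11. Over all 32851 windows of the table the median was 7, with quartiles of 3 and 20. The ranges of the testicular and somatic windows did not overlap, but met closely, with Adam1a at 4 and Adam19 at 5. The members without a window could change this, and no test was run on these few genes.

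The pair of most CpG-rich windows of somatic members is shown with a pair of CpG-poor windows of testicular members. Each runs 5′ to 3′ on the strand of the gene, with each CpG in capitals. Adam10, at chr9:70678732-70679031 on the plus strand, has 32 CpG, and Adam23, at chr1:63445641-63445940 on the plus strand, has 31. Adam1b, at chr5:121503386-121503685 on the minus strand, has 2, and Adam21, at chr12:81568425-81568724 on the minus strand, has 0.
Adam10: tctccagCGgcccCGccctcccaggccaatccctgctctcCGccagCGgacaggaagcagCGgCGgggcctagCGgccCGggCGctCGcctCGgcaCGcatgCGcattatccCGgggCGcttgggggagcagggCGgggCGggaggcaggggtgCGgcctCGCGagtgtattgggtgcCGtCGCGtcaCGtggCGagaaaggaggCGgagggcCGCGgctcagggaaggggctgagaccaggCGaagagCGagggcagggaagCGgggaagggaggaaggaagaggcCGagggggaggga
Adam23: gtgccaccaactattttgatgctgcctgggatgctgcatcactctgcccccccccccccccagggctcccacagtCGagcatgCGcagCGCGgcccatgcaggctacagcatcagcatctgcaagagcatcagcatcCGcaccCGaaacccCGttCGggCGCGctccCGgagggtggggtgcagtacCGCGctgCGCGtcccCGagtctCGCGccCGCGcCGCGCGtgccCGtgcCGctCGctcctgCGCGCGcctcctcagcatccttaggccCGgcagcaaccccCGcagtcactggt
Adam1b: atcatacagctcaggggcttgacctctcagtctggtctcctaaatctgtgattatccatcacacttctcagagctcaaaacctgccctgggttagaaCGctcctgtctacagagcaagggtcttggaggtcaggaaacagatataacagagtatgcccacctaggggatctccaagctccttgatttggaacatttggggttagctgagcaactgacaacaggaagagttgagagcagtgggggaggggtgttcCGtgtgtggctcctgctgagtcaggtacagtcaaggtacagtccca
Adam21: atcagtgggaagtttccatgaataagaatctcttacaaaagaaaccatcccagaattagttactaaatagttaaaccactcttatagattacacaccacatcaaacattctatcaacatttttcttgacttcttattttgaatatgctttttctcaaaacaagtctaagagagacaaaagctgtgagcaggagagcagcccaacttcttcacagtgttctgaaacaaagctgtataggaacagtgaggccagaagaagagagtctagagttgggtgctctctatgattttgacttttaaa

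The cyclic AMP response element TGACGTCA, bound by CREM in spermatids, was in none of the 10 testicular windows and in 1.79% of all windows, on either strand. Its core TGACG, which lies inside the longer motif, was also in none of them, against 20.8% of all windows, and Adam10 alone of the members had it. The GC box GGGCGG was in 5 of 7 windows of somatic proteases, in 0 of 2 windows of somatic adhesion members, in no testicular window and in 35.7% of all windows. Each of these motifs contains a CpG. Their absence from the testicular windows, of 0 to 4 CpG each, was therefore largely set by the CpG count and is no separate feature. These matches describe letters in a 300-base window only.

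**Figure D2:**
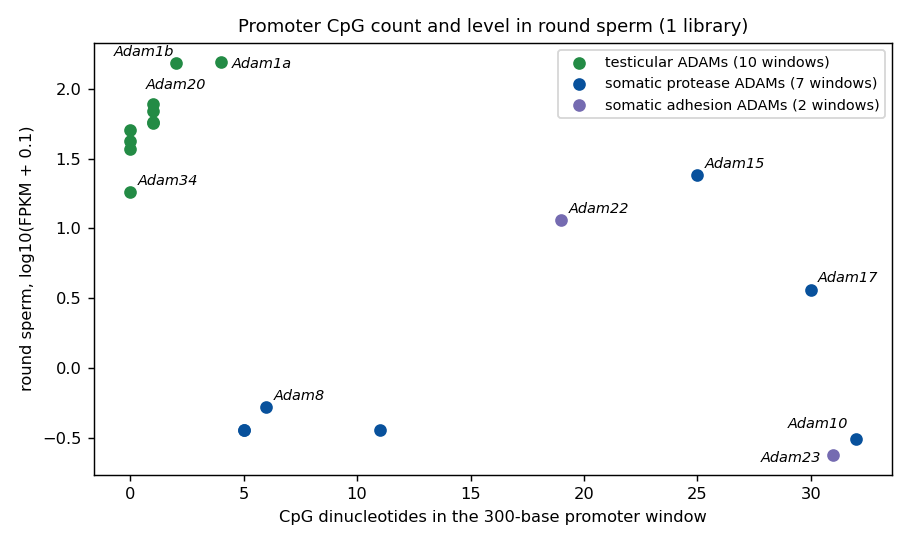
CpG count of each 300-base promoter window against the level of its gene in the round sperm library, as log10(FPKM + 0.1), with 1 point per window (Adam19 has 3) and colours for the subgroups. The 10 testicular windows lie at 0 to 4 CpG and the somatic windows at 5 to 32.

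Members also cluster by position, which was taken from a GRCm38 annotation, so no coordinates are set beside the mm9 values. Chromosome 8 holds 13 of the 33, and 12 of these are testicular. Adam18, Adam3, Adam5, Adam32 and Adam9 follow each other there with no other coding gene between them. The 4 testicular genes of this run stood at 184, 1385, 1312 and 844 FPKM in round sperm, while Adam9, a widely expressed somatic protease at its end, stood at 0.800. In the AG-haESC lines the order was turned, with Adam9 at 27.9, 20.6 and 20.7 FPKM and each of its 4 neighbours at 0.480 or below.

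Adam24, Adam25, Adam20 and Adam39 form a second run, and Adam26b and Adam26a lie side by side. Close copies share sequence, so reads may have been split or assigned to the wrong copy. Of the 50-base windows of their longest transcript, Adam25, Adam20 and Adam39 share 34.2% to 36.1% with another gene, Adam26a 36.4% and Adam26b 36.7%, and Adam6a and Adam6b, which are neighbours on chromosome 12, 29.5% and 29.6%. Adam1b shares 32.4%, mostly with Adam1a, and all windows of Adam1a are also in Gm42878, an annotated gene that overlaps it on the same strand. Adam4 shares 17.4% and Adam34 27.3% with other genes. The levels of these members are uncertain one by one. No exact window was shared for Adam2, Adam5, Adam18, Adam21, Adam24, Adam29, Adam30 and Adam32, and looser matches were not searched.

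**Figure D3:**
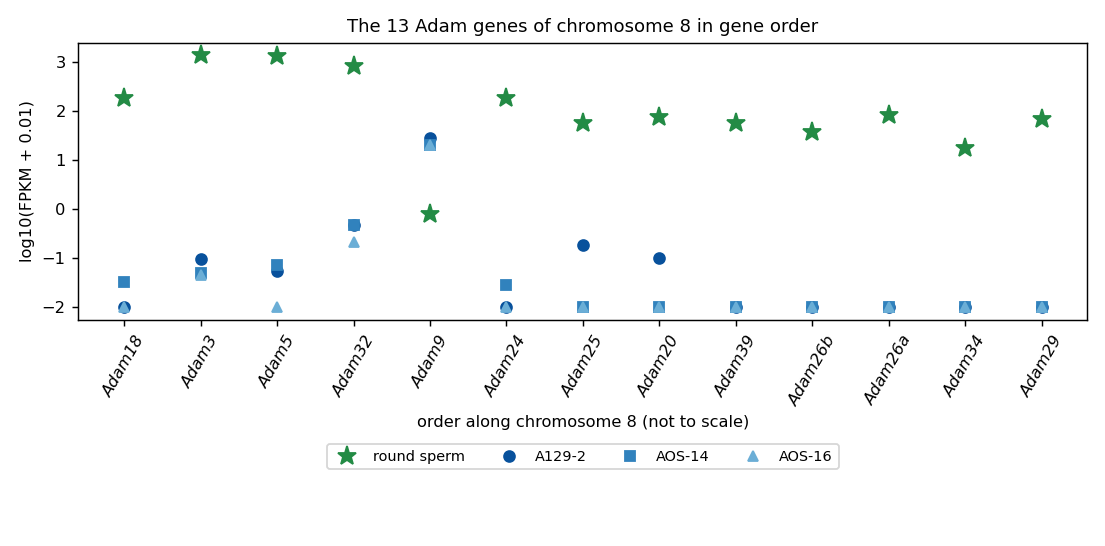
The 13 Adam genes of chromosome 8 in their order along the chromosome, with log10(FPKM + 0.01) in the round sperm library and the 3 AG-haESC lines, 1 point per library. Adam9 is the only one of the 13 whose AG-haESC points lie above round sperm.

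Sperm surface ADAMs had the highest levels among members in the round sperm library. Fertilin is a dimer of an ADAM1 and ADAM2 on the sperm surface, and ADAM3, or cyritestin, is the member that mouse sperm need to pass from the uterus into the oviduct and to bind the egg coat. Adam3 stood at 1385 FPKM in round sperm and at 0.0862, 0.0403 and 0.0370 in A129-2, AOS-14 and AOS-16. Those AG-haESC values rest on about 2, 2 and 1 fragments. Adam2 stood at 578 FPKM in round sperm, and at 0.0459, 0.0645 and 0.0788 in the lines in the same order, about 1, 3 and 2 fragments.

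Adam5, whose product is found in complexes with other sperm ADAMs, had 1312 FPKM in round sperm. It had 0.0455 in A129-2 and 0.0638 in AOS-14 and was listed at 0 in AOS-16. Adam32 had 844 FPKM in round sperm and 0.480, 0.472 and 0.206 in A129-2, AOS-14 and AOS-16. At about 10, 21 and 5 fragments, Adam32 was the testicular member with most fragments in each line. For all 4 of these genes the round sperm value lay far above every line, and none of the lines reached 1 FPKM.

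The fertilin alpha genes Adam1a and Adam1b had 155 and 153 FPKM in round sperm. Adam1a acts inside the cell on the way of ADAM3 to the surface, whereas Adam1b reaches the sperm surface. In the AG-haESC lines Adam1a lay between 0.0321 and 0.150 FPKM and Adam1b at 0.0403 or below. Adam24, also called testase 1, had 189 FPKM in round sperm, Adam18 had 184 and Adam30 had 148. Of these, each was at 0 in A129-2 and AOS-16 and rested on about 1 to 3 fragments in AOS-14.

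The remaining testicular members were lower in round sperm. Adam26a had 83.0 FPKM, Adam20 78.2, Adam29 69.3, Adam6a 58.2, Adam25 57.0, Adam39 56.5 and Adam21 50.9. Adam6b had 42.6, Adam4 41.8, Adam26b 37.3 and Adam34 18.1. Adam6a, Adam6b, Adam26a, Adam26b, Adam29, Adam34 and Adam39 were listed at 0 in all 3 AG-haESC lines and in both ESC XX libraries, so no fold is given for them. Adam7, which is known from the epididymis and not the testis, was listed at 0 in all 6 libraries. Since the round sperm library is single, the order of levels within it has no replicate check.

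The comparison with round sperm was tested by limma within the table the 4 libraries share, on log2(FPKM + 1), over genes reaching 1 FPKM in at least 1 of them. Calls needed an adjusted p (Benjamini-Hochberg) below 0.05 together with a difference of at least 1. Of the 33 members 29 entered the test. Of these, 20 reached 1 FPKM in round sperm alone, 5 in AG-haESCs alone and 4 in both, so most of those tested had to differ. Adam7, Adam12, Adam28 and Adam33 reached 1 FPKM in neither group. In either direction 61.9% of all genes were called. The test called 22 members lower in AG-haESCs, where 39.1% of all genes tested were called lower, and 4 higher, where 22.8% of all were called higher. The median difference was -5.78 over the 29 members and -0.49 over all 15938 genes tested.

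All 20 testicular members that were tested fell, and each stayed called and lower under each of the 8 alternative settings. Among those with a value above 0 in some line, Adam3 fell by 10.36 ± 0.09 on the log2 scale (± SE, limma, 3 lines and 1 library, adjusted p = 5.94e-05) and Adam2 fell by 9.09 ± 0.08 (adjusted p = 6.02e-05). Adam1b fell by 7.24 ± 0.07 (adjusted p = 6.23e-05). The size of these values is set by the pseudocount, since the lines hold few fragments of each gene. With a pseudocount of 0.1 in place of 1, Adam3 fell by 13.14, Adam2 fell by 11.80 and Adam1b fell by 10.33. The residual spread of a gene comes from the 3 lines alone, on 2 residual degrees of freedom, and round sperm is assumed to vary like them. limma pools this spread with that of all genes tested. Adam6a, at 0 in every line, thus still had an SE of 0.045. The 20 testicular members all reached 1 FPKM in round sperm alone. Their calls, and the stability of these calls, thus follow largely from how they entered the test.

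**Figure D4:**
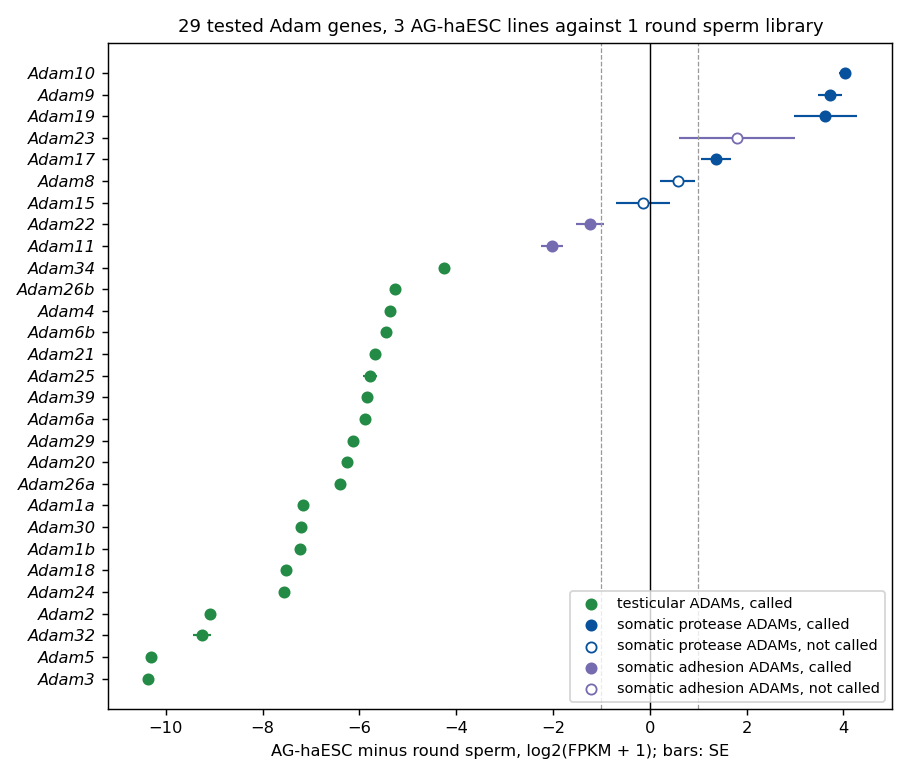
Difference of the 3 AG-haESC lines from the 1 round sperm library for the 29 Adam genes tested, on the log2(FPKM + 1) scale, with bars for the SE of the limma fit and open points for genes not called. The 20 testicular members lie between -10.36 and -4.26, and 4 somatic proteases lie above 1.

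Most factors that fold and place sperm ADAMs were also lower in AG-haESCs. This list of 12 genes, needed in mouse for sperm ADAMs to mature, had 11 that fell and 1 that rose of 12 tested, with a median of -6.48. Over all genes 39.1% fell and 22.8% rose, with a median of -0.49. Cmtm2a, of a family of membrane proteins, stood at 2270 FPKM in round sperm and at most at 0.0573 in a line, and fell by 11.12 ± 0.10 (adjusted p = 5.80e-05). Cmtm2b fell by 10.50 ± 0.13 (adjusted p = 0.000114) from 1556 FPKM. Clgn, or calmegin, the testis chaperone that assembles fertilin, was at 1126 FPKM in round sperm and 2.16 ± 1.38 (SD, n = 3) in AG-haESCs, and fell by 8.58 ± 0.67 (limma, adjusted p = 0.00483). Pdilt, a testis relative of protein disulfide isomerase, fell by 8.56 ± 0.09 (adjusted p = 7.03e-05). The gene that rose was Tpst2, an enzyme that adds sulfate to tyrosines and is also used outside the testis, at 21.3 ± 1.79 FPKM (SD, n = 3) against 1.31. It was singled out after its value was seen. Of the list, Pdilt, Pmis2, Prss37, Cmtm2a, Cmtm2b and Rnase10 reached 1 FPKM in round sperm alone. They entered the test only through the group where they are high, so their fall was largely set by the filter.

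Among somatic proteases, 4 of the 6 tested rose and none fell, where 22.8% of all genes rose and 39.1% fell. Adam8, Adam9, Adam10 and Adam19 reached 1 FPKM in AG-haESCs alone, so the test could not call them lower. Adam12, Adam28 and Adam33 were not tested, and each had a round sperm value above its AG-haESC mean, all below 1 FPKM. Adam10 is the protease that frees the Notch receptor for signalling and also cuts E-cadherin. It stood at 18.1, 18.2 and 19.7 FPKM in A129-2, AOS-14 and AOS-16 and at 0.209 in round sperm. It rose by 4.02 ± 0.11 (limma, n = 3 and 1, adjusted p = 0.000579), and the 3 lines were close to each other. Adam9 rose by 3.73 ± 0.25 (adjusted p = 0.00359).

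Adam19, or meltrin beta, stood at 9.96, 25.005 and 12.1 FPKM in the lines and at 0.259 in round sperm. It rose by 3.62 ± 0.65 (limma, adjusted p = 0.0253) and was not called with A129-2 left out (adjusted p = 0.0572) or with AOS-16 left out (adjusted p = 0.0897). Adam17, the TNF converting enzyme that also frees ligands of the EGF receptor, was the somatic protease after Adam15 with most RNA in round sperm. It stood at 8.32, 13.05 and 11.2 FPKM in the lines and 3.55 in round sperm. It rose by 1.36 ± 0.31 (limma, adjusted p = 0.0407), and was not called when AOS-14 (adjusted p = 0.0980) or AOS-16 (adjusted p = 0.134) was left out.

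Adam15, a protease with an adhesive loop, had a round sperm value within the range of the lines. It stood at 13.7, 30.5 and 24.2 FPKM in the lines and 24.1 in round sperm. Its difference of -0.15 had a 95% interval of -2.02 to 1.73 (limma, adjusted p = 0.829). The sign turned after rescaling to the same total, when the difference was 0.90, after quantile normalization (0.88) and without A129-2 (0.17), and it was not called under any of these. Of the length of Adam15's exons, 20.6% overlaps an antisense gene, and whether the counting used strand is not stated. Adam8, known from leukocytes, was low in all libraries, at 0.573 to 1.49 FPKM in the lines and 0.421 in round sperm. Its difference did not pass (0.57, 95% interval -0.65 to 1.79, limma, adjusted p = 0.261).

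The adhesion members, receptors for LGI proteins in the nervous system, did not move as one. Adam11 was at 6.92 FPKM in round sperm and at 0.621, 1.16 and 1.11 in the lines. It fell by 2.02 ± 0.23 (limma, adjusted p = 0.0101), with the call lost without AOS-14 (adjusted p = 0.0503). Adam22 was at 11.4 FPKM in round sperm and at 5.60, 3.52 and 3.86 in the lines. It fell by 1.24 ± 0.30 (limma, adjusted p = 0.0462), but the call ended under 6 of 8 alternatives, among them rescaling to the same total (-0.29, adjusted p = 0.652) and leaving out AOS-14 (adjusted p = 0.124) or AOS-16 (adjusted p = 0.142). Adam23 was at 0.137 FPKM in round sperm and at 9.51, 1.29 and 1.60 in the lines, and was not called (1.80 ± 1.201, limma, adjusted p = 0.278). Without A129-2 it was called, at 1.10 (adjusted p = 0.0346).

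The partners of the somatic proteases were read from 3 further lists. A gene below 1 FPKM in round sperm could enter the test through AG-haESCs alone, and so could not be called lower. This held for all regulators that rose. Of 14 tested regulators, 7 rose and 2 fell, beside 22.8% and 39.1% of all genes. Timp1, a tissue inhibitor of metalloproteases, rose by 6.11 ± 0.09 (limma, n = 3 and 1, adjusted p = 0.000162), from 0.402 FPKM to 95.9 ± 2.90 (SD, n = 3). Tspan14, a tetraspanin that carries ADAM10 to the surface, rose by 4.45 ± 0.26 (adjusted p = 0.00284). Furin, which removes the inhibitory propeptide of ADAMs, rose by 3.67 ± 0.30 (adjusted p = 0.00532). Rhbdf2, or iRhom2, which brings ADAM17 to the surface, rose by 3.32 ± 0.50 (adjusted p = 0.0176), with the call lost without AOS-14 (adjusted p = 0.0891).

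Of 12 tested substrates of ADAM10 or ADAM17, 3 rose and 2 fell, where 22.8% of all genes rose and 39.1% fell. The number that rose is thus near the share over all genes. Those that rose, Notch1, Notch2 and Cdh1, entered the test through AG-haESCs alone, and Epgn through round sperm alone. Cdh1, or E-cadherin, stood at 189, 60.6 and 87.7 FPKM in the lines and 0.283 in round sperm. It rose by 6.30 ± 0.82 (limma, adjusted p = 0.0130), and its call was lost without AOS-16 (adjusted p = 0.0636). Cdh2, or N-cadherin, went the other way, from 40.1 FPKM to 1.60 ± 1.03 (SD, n = 3), and fell by 4.05 ± 0.53 (limma, adjusted p = 0.0134), with the call lost without AOS-14 (adjusted p = 0.0731). Notch1 rose by 2.73 ± 0.27 (adjusted p = 0.00761) and Epgn, a ligand of the EGF receptor, fell by 1.94 ± 0.03 (adjusted p = 0.000180).

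Of 4 tested adhesion partners, 3 rose and 1 fell, with the same shares of 22.8% and 39.1% over all genes. The integrin chains Itga6 and Itgb1 rose by 4.79 ± 0.39 (limma, adjusted p = 0.00530) and 6.29 ± 0.52 (adjusted p = 0.00532), and the tetraspanin Cd9, which eggs need to fuse with sperm, by 7.02 ± 0.53 (adjusted p = 0.00439). Lgi2, one of the LGI ligands, fell by 1.00 ± 0.17 (adjusted p = 0.0233) and lost its call under 5 of 8 alternatives, each of the 3 that leave out a line among them. The medians of the regulators, substrates and adhesion partners were 1.48, 0.32 and 5.54, against -0.49 over all genes. Itga6 and Itgb1 also entered the test through AG-haESCs alone.

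Against ESC XX, 2 of the 11 members compared were called in AG-haESCs, where 14.7% of all genes were called in either direction. The 2 groups came in tables scaled apart, so differences were taken on log2(TPM + 1) after removing the median difference of all genes, and no test was run. A gene was called where the means differed by at least 1 and the AG-haESC and ESC XX libraries did not overlap. These 11 of the 33 members reached 1 TPM in at least 1 library, and all are somatic. Adam22 was called higher in AG-haESCs, where 6.93% of all genes were, and Adam12 lower, where 7.82% were. These counts are about what the shares over all genes give. Over the 11 members the median difference was 0.07, and groups did not overlap for 4 of 11 (Adam11, Adam12, Adam22 and Adam33), against 50.6% of all genes.

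Adam12, or meltrin alpha, a protease of mesenchyme and muscle precursors, stood at 0.0572, 0.0573 and 0.343 TPM in A129-2, AOS-14 and AOS-16. In the ESC XX libraries it stood at 4.67 and 4.56 TPM, above each line. The difference was -2.19 ± 0.20 (log2 ± SD over lines, n = 3) and lay between -4.28 and -2.05 under the 10 alternatives. Adam33, also known from mesenchyme, was at 0.221, 0.421 and 0.471 TPM in the lines and 1.88 and 1.47 in ESC XX. Its groups did not overlap either, but the difference of -0.86 was under 1 in size, and passed it, at -1.82, only with a pseudocount of 0.1.

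The sum of the feeder fibroblast markers was also lower in AG-haESCs than in ESC XX. The 8 markers summed to 23.0, 128 and 187 TPM in A129-2, AOS-14 and AOS-16 and to 1369 and 1370 TPM in ESC XX, and 6 of the 8 were called lower in AG-haESCs. Among the lines Adam12 was highest in AOS-16, as the marker sum was. A129-2 and AOS-14 had 0.0572 and 0.0573 TPM of Adam12, on about 2 and 6 fragments, at sums of 23.0 and 128. Adam33 followed the order of the sums. Lum, a fibroblast proteoglycan, was at 0 in A129-2, and no marker was at 0 in the other libraries. The part of feeder cells in the levels of Adam12 and Adam33 was not tested.

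Some inhibitors and substrates of the proteases were also lower than in ESC XX. Of 14 regulators compared, 2 were called lower and 1 higher, where 7.82% of all genes were lower and 6.93% higher. Timp2 was at 3.88 ± 1.95 TPM in AG-haESCs (SD, n = 3) against 187 and 185 in ESC XX, and Timp3 at 4.35 ± 1.14 against 145 and 151. The regulator called higher was Tspan33, a tetraspanin of the ADAM10 group, at 7.27 ± 2.39 TPM (SD, n = 3) against 1.81 and 2.05. Of 14 substrates compared, 4 were called lower and 1 higher, beside the same shares. For both lists the 1 gene called higher is about what the share over all genes gives. Cd44, a hyaluronan receptor, was at 0.844 ± 0.445 TPM (SD, n = 3) against 69.6 and 69.3, App at 14.01 ± 3.93 against 141 and 137, and Cdh2 at 2.81 ± 1.98 against 11.2 and 12.7. The same fibroblast marker sums stand beside these values, and their part was not tested. The substrate called higher was the Notch ligand Dll1, at 4.63 ± 3.51 TPM (SD, n = 3) against 0.771 and 1.06.

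Adam22 was at 10.997, 4.98 and 7.07 TPM in the lines and 3.73 and 2.75 in ESC XX. All 3 lines lay above both ESC XX libraries, with a difference of 1.09 ± 0.50 (log2 ± SD, n = 3). The call ended without A129-2 (0.91), without the second ESC XX library (0.92) and with the median difference kept (0.98). Adam8, Adam9, Adam10, Adam15, Adam17 and Adam19 met neither bound. Adam9 stood at 40.6 ± 13.01 TPM in AG-haESCs (SD, n = 3) and 53.7 and 51.3 in ESC XX, Adam10 at 32.4 ± 5.82 against 28.2 and 27.8, and Adam17 at 18.4 ± 2.10 against 20.03 and 20.8.

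**Figure D5:**
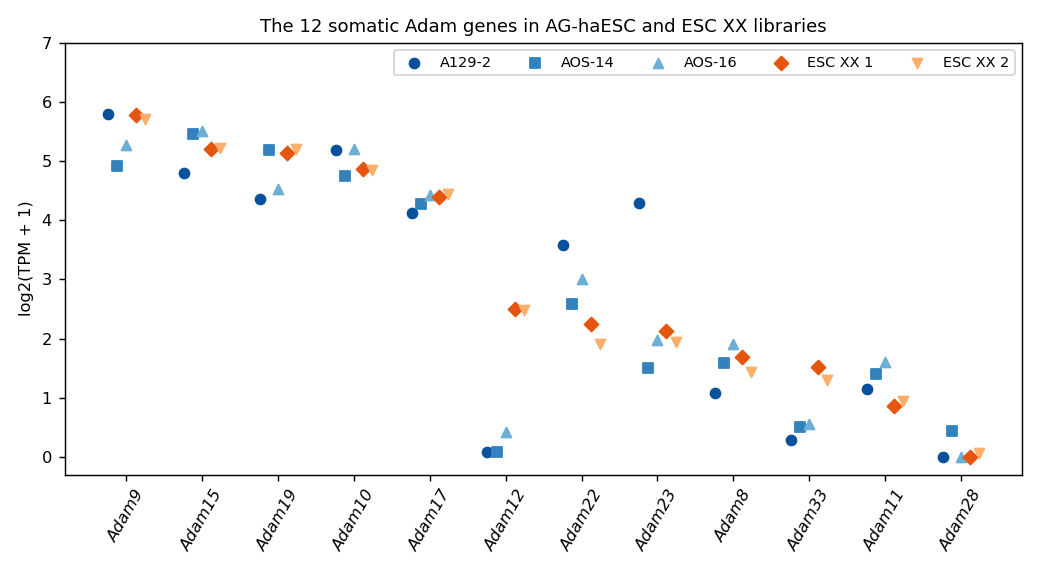
The 12 somatic Adam genes in the 3 AG-haESC lines and 2 ESC XX libraries, as log2(TPM + 1) without removal of the median difference, 1 point per library. Adam12 and Adam33 are higher in both ESC XX libraries than in any line, and Adam23 is highest in A129-2.

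The testicular members stayed below 1 TPM in ESC XX as well, and so none was compared. Adam1a was at 0.655 and 0.9996 TPM in ESC XX, about 25 and 44 fragments, and at 0.0587 to 0.294 in the lines. All its 50-base windows are also in Gm42878, so these fragments may not be its own. Adam4 was at 0.388 and 0.823 TPM in ESC XX and at 0.0994 or below in the lines. Its product joins a sperm complex with ADAM2 and ADAM3. Adam32, the testicular member that led in the lines, was at 0.631 and 0.459 TPM in ESC XX and at 0.943, 0.668 and 0.377 in A129-2, AOS-14 and AOS-16. Of the 6 maturation factors compared, 2 were called higher in AG-haESCs, where 6.93% of all genes were, and 0 lower. These were Ly6k and Ace, at 8.61 ± 1.36 TPM (SD, n = 3) against 2.02 and 0.707, and at 8.19 ± 5.69 against 1.69 and 2.05. Of 4 spermatocyte markers compared, 3 were also called higher, where 6.93% of all genes were, and none lower. The 5 on the full list summed to 107 TPM in A129-2, 59.2 in AOS-14, 55.9 in AOS-16 and 25.2 and 23.7 in ESC XX. Among the lines Ly6k and Ace were highest in AOS-16, at 9.99 and 14.5 TPM, where that sum was lowest. The part of these markers in the levels of Ly6k and Ace was not tested. None of the 5 compared adhesion partners was called.

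Among the lines, Adam23 was highest in A129-2. Its level was 18.7 TPM there, against 1.82 in AOS-14, 2.93 in AOS-16 and 3.37 and 2.84 in ESC XX. The difference of A129-2 from the mean of the AOS lines was 2.56 on the log2(TPM + 1) scale, and 2.11 to 2.96 under the 5 alternatives. It was the 1 member of 9 compared that lay at least 2-fold higher in A129-2 and above both AOS lines, where 10.4% of all genes did. A count of 1 is about what this share gives. No member lay as far below, where 4.43% of all genes did; 14.8% did either. The difference of the 3 lines from ESC XX, 0.66 ± 1.499 (log2 ± SD, n = 3), was -0.11 without A129-2. With 1 library per line this difference has no replicate check.

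Adam23 lies on chromosome 1. On chromosome 8, the 451 genes averaging 10 TPM or more exceeded the AOS lines in A129-2 by a median log2 difference of 0.93, taken relative to the remaining autosomes, or 1.11 without that adjustment. Adam9, the somatic member on chromosome 8, had 54.7, 29.1 and 37.8 TPM in A129-2, AOS-14 and AOS-16, an unadjusted difference of 0.70, to be set beside the 1.11, or 0.42 on the values as deposited. None of the 12 testicular members on chromosome 8 exceeded 0.480 FPKM in A129-2. Adam25 and Adam20 had a value above 0 there, on about 4 and 2 fragments, and were at 0 in the other 4 stem cell libraries.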

How the data were processed

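RNA was sequenced from libraries of a stranded KAPA mRNA kit, per the labels' protocols. Per the submitters' processing notes, the authors used TopHat2 2.0.13 and Cuffdiff 2.2.1 with mm9; no source used here gives the settings, strand use or normalization between libraries. The authors deposited FPKM values; the header of the 4-library table names no unit, which was taken from the tool and the values. TPM was computed by rescaling each library to the same total. Members and lists were chosen with earlier results of these data known. Named genes are all members and, per list, up to 4 called genes with the largest difference; marker lists are given by sums and counts.

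limma 3.58.1 in R 4.3.3 was fitted with a mean-variance trend on all 15938 genes reaching 1 FPKM in at least 1 of 4 libraries. Tests were two-sided, with Benjamini-Hochberg adjustment. The fit was also run on simulated data in which every library had the spread of the 3 lines. That run cannot check how round sperm varies. The p-values measure the spread between 3 cell lines, pooled by limma with that of all genes tested. Differences on log2(value + 1) understate changes of low genes. Depth was estimated from whole-fragment steps of 2478 genes with 1 transcript; fragment numbers are approximate, from the longest GENCODE M21 transcript. A value of 0 may be a failed estimate. Adam37 and Adam38, on the testicular list, are not in the tables used here. Alternatives changed the pseudocount, the filter, the scaling, the trend, the removal of the median and the libraries.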

Additional observations from a re-analysis of the deposited data

How the results depend on the processing

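Against round sperm, 23 of the 29 members tested kept their direction and their side of the threshold under all 8 alternatives, all 20 testicular members among them. The number of members called higher was 2 to 4 and called lower 20 to 22 when 1 line was left out. Over all genes these counts were 2449 to 3469 and 5243 to 5941. Adam15 turned sign after rescaling to the same total (0.90), after quantile normalization (0.88) and without A129-2, and lay between -0.38 and 0.17 when 1 line was left out. Tspan33, not called at -0.85, was at 0.070 after rescaling. The median over all genes, -0.49 as deposited, was 0.49 after rescaling and 0.31 after quantile normalization, and the share of calls that were higher was 36.8%, 52.2% and 51.1% in that order. Against ESC XX, with the median difference kept, 0 members and 644 of all genes were called higher, against 1 and 987 with it removed. Leaving out 1 library gave 0 to 1 members higher. With a pseudocount of 0.1, 2 members were lower, Adam33 being the added one. Without AOS-16, 2 members were higher in A129-2 than in AOS-14, Adam22 besides Adam23, and without AOS-14 there was 1. No paired analysis was possible because round sperm has 1 library and the labels number only the ESC XX pair. Depth limits the testicular members in stem cells, which rest on few fragments, and the single round sperm library has no replicate. The testicular members entered the test against round sperm through that library alone.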
